A study of Drosophila melanogaster with 2 samples.

Results

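The 10 genes described here set up the dorsal-ventral axis of the fruit fly embryo or carry the signal of Decapentaplegic (Dpp), a secreted protein of the bone morphogenetic protein (BMP) family. They are dpp, sog, tld, brk, Mad, Med, zen, dl, twi and sna. They were listed by name and not by a cut on any measured value, although earlier results of these data were known. They are 10 of 18277 annotated genes on 7 chromosome arms and 10 of 13968 protein-coding genes. For each gene, every summit of a ChIP-seq peak in the gene or within 5 kb of either end was collected. A peak is a short stretch where the immunoprecipitated DNA piled up above a control, and its summit is the base where the pile was highest.

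The protein mapped was CG17328, a zinc-finger protein of Drosophila melanogaster, fused to enhanced green fluorescent protein (eGFP). Both biological replicates came from the transgenic strain CG17328-GFP, were whole embryos aged 0 to 24 h, and formed 1 group with no second condition. Chromatin was sheared by sonication and the fusion was pulled down with an antibody against the fluorescent protein. No control library was analysed here, and the labels name neither the promoter that drives the fusion nor the tissues in which it is made.

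In the early embryo, the maternal transcription factor Dorsal, encoded by dl, enters nuclei on the ventral side, switches on twi and sna there, and keeps dpp, tld and zen restricted to the dorsal side. Dpp is moved dorsally by its inhibitor Short gastrulation (sog), which the protease Tolloid (tld) cleaves. Cells that receive Dpp phosphorylate Mad, which enters the nucleus with Medea (Med), while Brinker (brk) represses Dpp target genes where the signal is low.

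Peaks were found at 6 of the 10 genes, namely Med, Mad, dpp, sog, brk and twi, and none at tld, zen, dl or sna. The 6 genes held 14 peaks of the authors' conservative list, which is the list made from both replicates together and thresholded on the irreproducible discovery rate (IDR, which is low where separate peak calls rank a peak alike). The highest lay just past the end of Med, and the next in an intron of Mad. The gene with the most peaks was sog, with 6. Peaks were called at 51.2% of protein-coding genes by the same rule and at 48.1% of all annotated genes, so a peak near a gene was common in this data set.

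The strength of a peak is given as the authors' signal, a value whose unit the deposited lists do not state. Over the 5807 conservative peaks the median signal was 94.5, the lowest 2.03 and the highest 13769. Values called pooled come from the list made from both replicates and carry no error of their own. The IDR of a peak is listed no lower than 1e-05, and the authors' threshold was 0.01. Among the ranked lists, which hold all candidates before thresholding, the series-level one behind the conservative list had 124555 entries with a median signal of 18.2. The ranked list of replicate 1 had 92077 entries and a median of 12, and that of replicate 2 had 79940 entries and a median of 13.2.

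**Figure D1:**
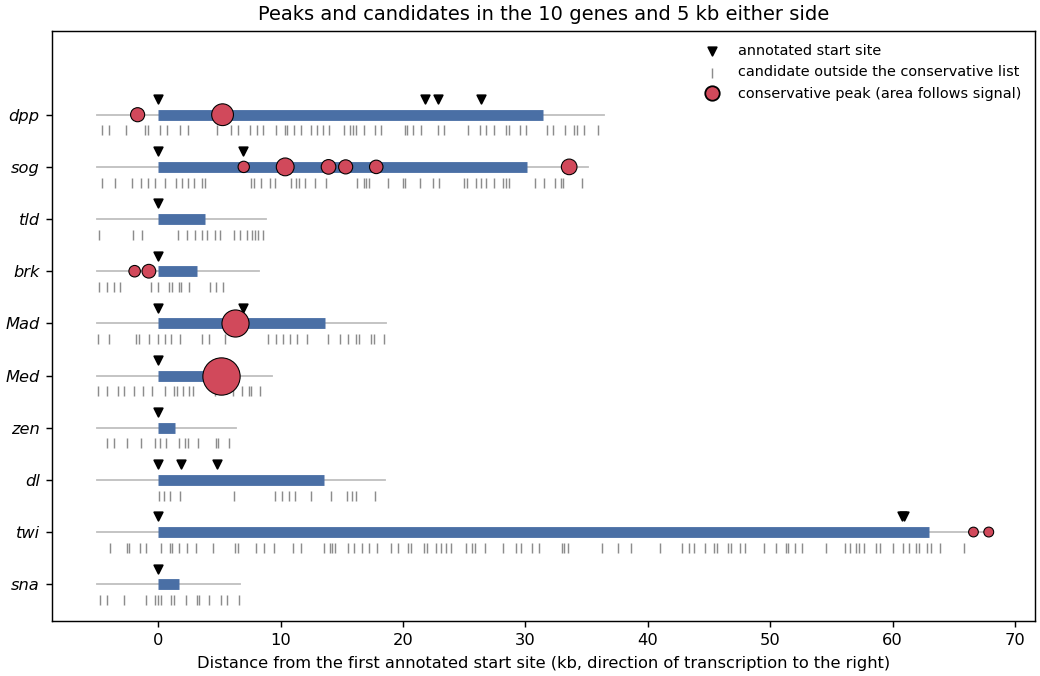
Map of the 10 genes, drawn from the first annotated start site in the direction of transcription, in kb. Blue bars are genes, thin lines the 5 kb on either side, triangles start sites, red circles the 14 conservative peaks with their area in proportion to signal, and grey ticks candidates outside that list. The largest circles lie at the end of Med (853) and in Mad (451), and sog holds 6 of the 14.

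The reference sequence under the highest peaks is shown first, for the 4 genes with a peak called in both replicates. Each run holds the summit base of the gene's highest peak and the 50 bases on either side of it, on the plus strand of assembly dm6, and was read from the RefSeq copy of the assembly. Capitals mark the longest stretch made of A and T alone, or the leftmost where another is as long, as at the end of the Mad run. The Med run is chr3R:31616130-31616230, the Mad run chr2L:3153348-3153448, the dpp run chr2L:2433575-2433675 and the sog run chrX:15623013-15623113.
Med: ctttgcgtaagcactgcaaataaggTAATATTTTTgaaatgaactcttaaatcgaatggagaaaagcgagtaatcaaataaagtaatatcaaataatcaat
Mad: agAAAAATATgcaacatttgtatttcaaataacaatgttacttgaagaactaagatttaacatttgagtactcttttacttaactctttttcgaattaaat
dpp: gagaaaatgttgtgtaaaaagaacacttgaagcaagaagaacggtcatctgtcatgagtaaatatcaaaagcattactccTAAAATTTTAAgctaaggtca
sog: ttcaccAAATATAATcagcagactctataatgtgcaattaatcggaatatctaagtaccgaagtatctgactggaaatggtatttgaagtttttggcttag

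All 4 runs were rich in A and T. G+C content was 27.7% in the Med run, 22.8% in the Mad run, 32.7% in the dpp run and 33.7% in the sog run, against a mean of 35.8% over all 5802 conservative summits on the chromosome arms. The longest A/T stretch had 10 bases at Med, 8 at Mad, 11 at dpp and 9 at sog, and the median over all summits was 9. So the stretches in capitals were of a length that is ordinary in this list.

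dpp encodes the BMP ligand itself and spans 31452 bp of chromosome arm 2L on the plus strand, from 2428372 to 2459823 (FBgn0000490), with 4 annotated start sites. Its higher peak ran from 2433538 to 2433711, with its summit 5253 bp downstream of the first start site. That position is in the first intron of 1 of the 4 annotated transcripts, a 26 kb intron from 2429051 to 2455056. Replicate 1 gave it a signal of 124, replicate 2 gave 165, and the pooled list 291, where it ranked 481 of 5807. Both replicates listed it at the lowest IDR, 1e-05, and the replicates' summits lay 3 bp from each other. The bases printed above held 32.7% G+C, and flanks of equal length centred 300 bp away held 51%.

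The second dpp peak, from 2426526 to 2426841, was weaker and lay upstream of the gene. Its signal was 55.1 in replicate 1, 60.1 in replicate 2 and 122 in the pooled list, at a pooled IDR of 0.000144. The summit was 1688 bp upstream of the first dpp start site and in no annotated gene. The nearest start site belonged to the noncoding RNA gene lncRNA:CR44912, 1197 bp away on its downstream side, and so closer than that of dpp. Both replicates placed it in their own thresholded lists. No conservative peak lay within 500 bp of any dpp start site. A candidate with its summit at the start site at 2451229 had a pooled signal of 45.6 and an IDR of 0.0273, outside the threshold.

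sog encodes the secreted BMP inhibitor Short gastrulation, the fly counterpart of vertebrate Chordin. The gene lies on the X chromosome from 15603283 to 15633434 on the minus strand (FBgn0003463), spans 30152 bp and has 2 annotated start sites, the downstream one at 15626540. It held 6 conservative peaks, and 1.25% of protein-coding genes held at least as many. Per length it stood less far out, since its density of 1.49 peaks per 10 kb was reached by 15.4% of protein-coding genes.

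Of the 6 peaks, 4 fell inside a single 10.5 kb intron, from 15614907 to 15625429, that all 3 annotated transcripts share. The highest of them is the sequence printed for sog, from 15623000 to 15623119, with its summit 3477 bp downstream of the nearest sog start site. It had a signal of 82.8 in replicate 1, 106 in replicate 2 and 195 in the pooled list, where it ranked 1027. It was in the thresholded lists of both replicates.

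The next in that intron ran from 15619438 to 15619541 and was the only one of the 14 peaks with the higher signal in replicate 1, at 71, against 61.9 in replicate 2. Another, from 15617966 to 15618281, had a signal of 45 in replicate 1 and 79.3 in replicate 2. These 2 were also called in both replicates, with pooled signals of 131 and 122. Of the bases within 50 bp of the summit of the peak from 15617966, 48.5% are marked as repeat in the reference. The last, from 15615467 to 15615782, was called in replicate 2, with a signal of 75.5 at an IDR of 6.51e-05. In replicate 1 its entry had a signal of 40.5 at an IDR of 0.0388 and missed the threshold. Within the intron, the pooled signals were 195, 131, 122 and 112 at 3477, 7018, 8416 and 10915 bp from the downstream start site. Replicate 1 fell in the same order, but replicate 2 did not, with 106, 61.9, 79.3 and 75.5. The sog peak closest to that start site, 89 bp from it, had a lower pooled signal than any of these, at 78.8. No trend with distance is therefore read from these values.

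Only sog among the 10 genes had a conservative peak within 500 bp of one of its own start sites. That peak, from 15626293 to 15626608, had its summit 89 bp inside the transcript of the downstream start site, in the 5′ untranslated region. It was the weakest of the 6, with a signal of 35.9 in replicate 1, 38.3 in replicate 2 and 78.8 in the pooled list. Replicate 1 listed it at an IDR of 0.0133, just outside the threshold, and replicate 2 at 0.00632. Of the bases within 50 bp of this summit, 63.4% are marked as repeat in the reference. The part of repeats in this or any other call was not tested.

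The sixth sog peak lay 3422 bp past the 3′ end, from 15599828 to 15599943. Its signal was 55.4 in replicate 1, 92.8 in replicate 2 and 150 in the pooled list, and both replicates called it. It was in no annotated gene, and the nearest start site was that of the neighbour Chsy, 6327 bp away.

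tld encodes the metalloprotease Tolloid, which frees Dpp by cutting Sog, and it had no conservative peak. The gene is short, 3780 bp on 3R from 24749731 to 24753510 (FBgn0003719). Among 17 candidates in its region, the highest had a pooled signal of 38.1 at an IDR of 0.243, and the lowest IDR of any was 0.138. The highest candidate lay between genes, 163 bp upstream of the start site of asp, the gene of a spindle protein. In the replicates the highest entries were 18 in replicate 1 and 17.6 in replicate 2, above the list medians of 12 and 13.2 but under the replicate values given here for each of the 14 conservative peaks.

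brk encodes Brinker, the repressor that Dpp signalling switches off, and spans 3194 bp of the X chromosome from 7307939 to 7311132 (FBgn0024250). It had 2 conservative peaks, both upstream of its only annotated start site and both called in replicate 2 alone. The nearer one, from 7307014 to 7307329, lay 767 bp upstream and had a signal of 28.3 in replicate 1, 85.4 in replicate 2 and 116 in the pooled list. Replicate 1 listed its entry at an IDR of 0.0188 with a summit 180 bp from that of replicate 2. The replicates were 3.02-fold apart here, and over the members' peaks called in both replicates that ratio ran from 0.873 to 1.76.

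The farther brk peak, from 7305850 to 7306165, lay 1931 bp upstream. Its signal was 32.7 in replicate 1, 48.5 in replicate 2 and 81.3 in the pooled list, and 39.6% of the bases within 50 bp of its summit are marked as repeat in the reference. Both summits sat in introns of CG1677 and of the noncoding RNA gene lncRNA:CR44357, which overlap there, although brk had the nearest start site. Per length, brk had 1.52 peaks per 10 kb, a density that 15.1% of protein-coding genes reached.

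Mad encodes the Smad protein that the activated Dpp receptors phosphorylate, and it held 1 conservative peak, the second highest of the 14. The gene spans 13588 bp of 2L on the minus strand from 3146056 to 3159643 (FBgn0011648), with start sites at 3159643 and 3152753. The peak ran from 3153289 to 3153515 and had a signal of 193 in replicate 1, 256 in replicate 2 and 451 in the pooled list. It ranked 208 of 5807, within the highest 3.58%. Both replicates listed it at an IDR of 1e-05, with summits 5 bp apart.

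The Mad summit lay 645 bp upstream of the downstream start site, inside a 10.2 kb first intron of 1 of the 2 annotated transcripts. It therefore missed the 500 bp promoter window by a small distance. Within 50 bp of this summit the G+C content was 22.8%, and in the flanks 39.6%. The candidate closest to the threshold from outside, from 3149286 to 3149601 in the same gene, had a signal of 47.9 at an IDR of 0.0117.

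Med encodes Medea, the co-Smad that partners Mad, and the highest peak of the 14 fell in its region. The gene spans 4330 bp of 3R on the plus strand from 31611046 to 31615375 (FBgn0288966). The peak ran from 31616055 to 31616302 and had a signal of 370 in replicate 1, 483 in replicate 2 and 853 in the pooled list. It ranked 49 of 5807, within the highest 0.844%, and both replicates called it at an IDR of 1e-05.

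Its summit, however, lay 805 bp past the 3′ end of Med and 20 bp upstream of the start site of Mnat9 (FBgn0039859). Mnat9 runs in the opposite direction, from 31616160 to 31615284, and overlaps the end of Med. By distance this is a promoter peak of Mnat9, 5134 bp downstream of the Med start site. Of the bases within 50 bp of the summit, 42.6% are marked as repeat in the reference. Beside the shares given for sog and brk, such bases made up 10.9% at the sog peak of 112 and 17.8% at the twi peak of 59.7, and 0 at the other 8 summits. At the Med start site itself no conservative peak was found within 500 bp. A candidate with its summit 545 bp upstream had a signal of 53.8 at an IDR of 0.0104, just outside the threshold.

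**Figure D2:**
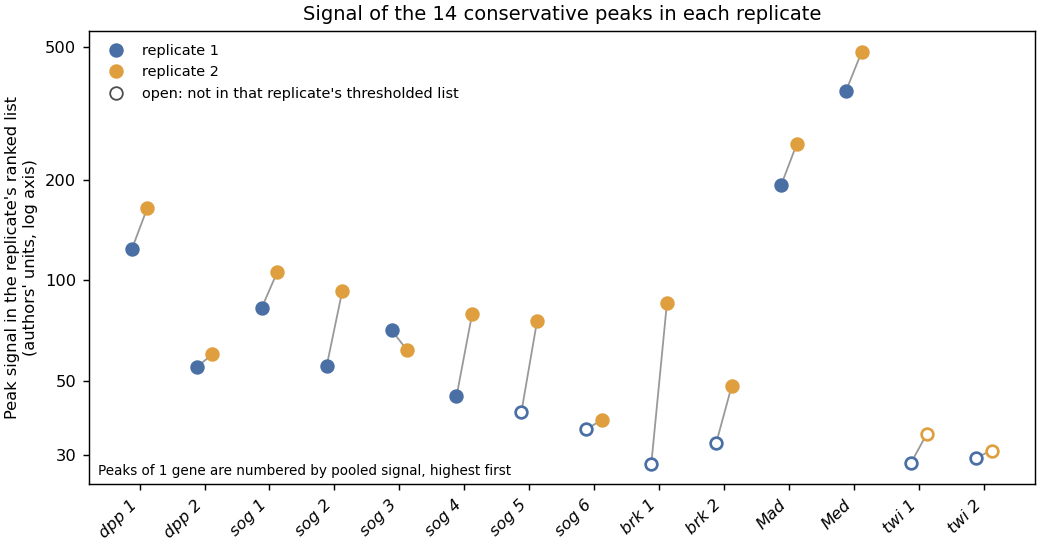
Signal of each of the 14 conservative peaks in replicate 1 (blue) and replicate 2 (orange), in the authors' units on a log axis, with open circles where the peak was not in that replicate's thresholded list. Replicate 2 was higher at 13 of 14, and both twi peaks were open in both replicates, at 28.5 to 34.7.

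zen encodes a homeodomain protein needed for the amnioserosa, the extraembryonic tissue that the highest level of Dpp signalling specifies. The gene spans 1331 bp of 3R on the minus strand from 6752864 to 6754194 (FBgn0004053) and had no conservative peak. Its region held 14 candidates, of which the highest had a pooled signal of 34.8 at an IDR of 0.267. That candidate lay 3629 bp upstream of zen, in a coding exon of the neighbouring gene bcd, which encodes the anterior determinant Bicoid. The highest entry was 19.9 in replicate 1 and 23.6 in replicate 2, and each replicate had it at a different place.

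dl encodes Dorsal, and it spans 13535 bp of 2L on the minus strand from 17436830 to 17450364 (FBgn0260632), with 3 start sites. It had no conservative peak. Its highest candidate, in an intron 1397 bp downstream of a start site, had a pooled signal of 39.8 at an IDR of 0.0854, the highest signal among the 4 genes without a peak. The highest entries were 22.4 in replicate 1 and 24.9 in replicate 2, and both of those lay in the 3′ untranslated region. Candidates were also sparser at dl than at any other of the 10 genes, with 6.37 per 10 kb. The arms, over their whole length, had 8.97.

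twi encodes the basic helix-loop-helix activator Twist of the mesoderm. It is annotated on 2R from 22985374 to 23048325 (FBgn0003900), 62952 bp in all, because 1 of its 3 start sites lies 60734 bp upstream of the next. Its region was the longest of the 10, and both of its conservative peaks lay beyond the 3′ end. The one from 23053069 to 23053384 had a signal of 28.5 in replicate 1, 34.7 in replicate 2 and 59.7 in the pooled list. The one from 23051821 to 23052136 had 29.5 in replicate 1, 31 in replicate 2 and 58.2 in the pooled list. They ranked 4938 and 5029 of 5807, and neither was in the thresholded list of either replicate.

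These peaks lay 4902 and 3654 bp past the end of twi, near the edge of its region, and the nearest start site was that of Fatp2, 2247 and 3495 bp downstream of them. Their pooled IDR values of 0.00356 and 0.00408 are the highest among the 14 peaks, the closest to the threshold of 0.01 from inside. The entries just outside it in the regions of the 10 genes were those at Med, with 0.0104, and Mad, with 0.0117. Another entry at Med, with 0.00517, was inside the threshold but not in the conservative list. The series-level ranked list behind the conservative one held 140 such entries. No called peak lay within 500 bp of a twi start site.

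sna encodes Snail, the zinc-finger repressor that keeps neurectodermal genes off in the mesoderm. The gene spans 1668 bp of 2L on the minus strand from 15476593 to 15478260 (FBgn0003448) and had no conservative peak. Its highest candidate, 2824 bp upstream and between genes, had a pooled signal of 33.3 at an IDR of 0.691. The highest entries were 19 in replicate 1 and 16.7 in replicate 2. Its highest entry was the lowest of the 10 genes in the pooled list and in replicate 2, while in replicate 1 that of tld was lower, at 18. The region held 13.7 candidates per 10 kb, and the arms, over their whole length, had 8.97.

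**Figure D3:**
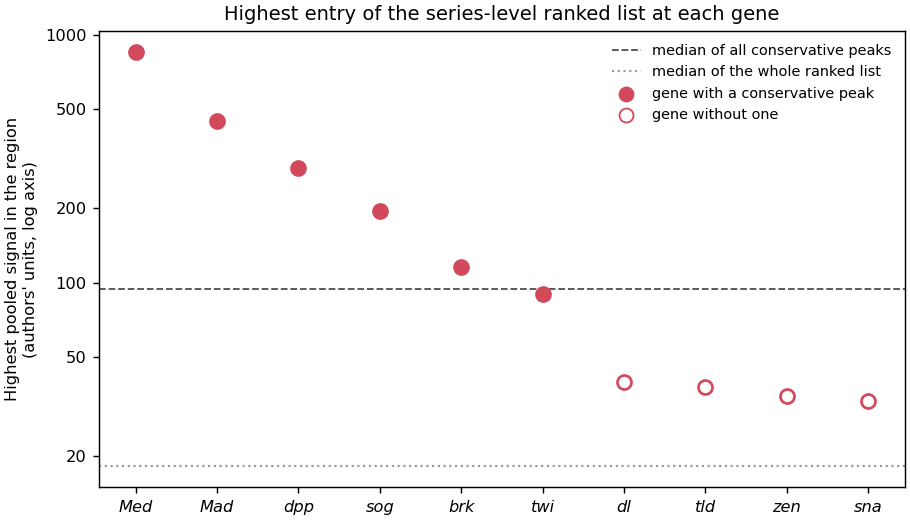
Highest pooled signal in the series-level ranked list for each of the 10 genes, in the authors' units on a log axis, filled where the gene had a conservative peak. The 4 genes without one lie between 33.3 and 39.8, under the dashed median of conservative peaks (94.5) and above the dotted median of the ranked list (18.2); for twi the point is a candidate of 90.2 that the conservative list leaves out.

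Ordered by its highest conservative peak, the pooled signal was 853 at Med, 451 at Mad, 291 at dpp, 195 at sog, 116 at brk and 59.7 at twi. Of the mesoderm and ventral genes twi, sna and dl, twi alone had called peaks, and sna and dl had none. Both peaks of twi were under the list median of 94.5, as were the weakest ones of sog and brk, and the other 10 of the 14 were above it. The median of the 14 was 122. No test was made of this order, since there is 1 group and the genes differ in length and neighbours.

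Both replicates put the highest peaks of Med, Mad, dpp and sog in the same order. Of the 14, 8 overlapped a thresholded peak in both replicates, which is 57.1%, against 49.8% of the 5802 conservative peaks. Another 4 were called only by replicate 2, none only by replicate 1, and the 2 at twi by neither. Among the 8, replicate 2 was 1.31-fold replicate 1 at the median, and over all shared conservative peaks it was 1.24-fold. The lists do not say if a given signal means the same in each replicate, so the higher values of replicate 2 are not read as a difference in binding.

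A peak called in both replicates was found at 4 of the 10 genes, dpp, sog, Mad and Med. Among protein-coding genes that share was 34.2%. A peak within 500 bp of an own start site was found at 1 of 10, and at 20.1% of protein-coding genes. With 10 genes, each gene moves such a share by 10 percentage points, so neither count is read as a difference from all genes.

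By place, 8 of the 14 summits lay in introns, 5 between genes, 1 in a 5′ untranslated region and 0 in coding sequence. The make-up of the whole list by place is not given here, so these counts are not read as a trait of these genes. Of the 8 in introns, 6 were in the genes described, with 4 in sog, 1 in dpp and 1 in Mad, and the other 2 were those upstream of brk. Widths ran from 104 to 316 bp, and the median was 316 bp, the same as over the whole list. Known embryonic enhancers of several of these genes lie in introns and flanks. Their positions were not used here, so no peak was compared with them.

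A peak near a gene need not belong to it. The nearest annotated start site was that of the gene described for 9 of the 14 peaks, which were 5 of sog, 2 of brk, 1 of dpp and 1 of Mad. The other 5 were nearer to lncRNA:CR44912, Chsy, Mnat9 or Fatp2, and the highest of all, at Med, was among them. With peaks assigned by nearest start site, 4 of the 10 genes kept a peak, and the share among protein-coding genes was 21.6%. This way of assigning peaks was chosen after the values were seen.

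Longer genes more often held a peak. At least part of this follows from the counting rule, because a longer gene gives a wider region to search. Of the 10 genes, all 3 over 20 kb (dpp, sog and twi) had one, against 71.7% of protein-coding genes of that length. The peaks counted for twi lay past its 3′ end, so its long gene body held none. Of the 2 genes of 5 to 20 kb, Mad had one and dl did not, and the share among protein-coding genes was 63.6%. Of the 5 under 5 kb, brk and Med had one, and tld, zen and sna did not, beside 46.3% of protein-coding genes. With so few genes in a class, the shares of the 10 genes are not read as different from these.

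Over the 266 kb of the 10 regions there were 0.526 conservative peaks per 10 kb, and over the arms 0.422. Candidates of the series-level ranked list numbered 323, or 12.1 per 10 kb, and the arms had 8.97. The values for the arms are over their whole length, the Y chromosome included, whereas the regions are genes with flanks. Genes without a peak also had more candidates than the arms, with 12.3 per 10 kb at tld, 12.4 at zen and 13.7 at sna, although dl had fewer. So these densities are not read as a difference of the 10 regions from other genes. By gene, the density of conservative peaks was 0.698 per 10 kb at Med, 0.482 at dpp, 0.424 at Mad and 0.274 at twi. Between 42% and 50% of protein-coding genes reached these values, so of the 10 genes sog and brk, with 15.4% and 15.1%, stood highest by density. The value for brk rests on 2 peaks, both called in replicate 2 alone. By count, 24.8% of protein-coding genes held at least as many peaks as brk, and 1.25% at least as many as sog.

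**Figure D4:**
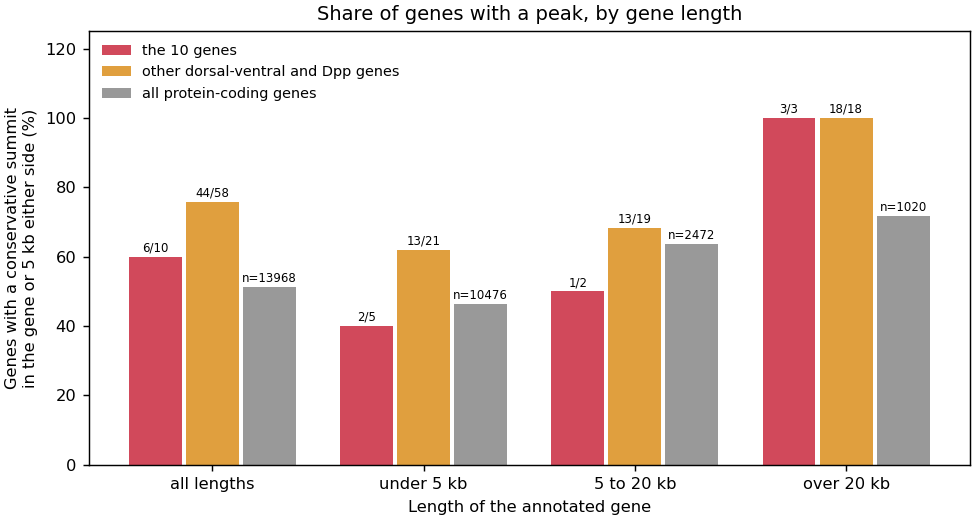
Share of genes with a conservative summit in the gene or within 5 kb, in percent, by gene length, for the 10 genes (red), the 58 other dorsal-ventral and Dpp genes (orange) and all protein-coding genes (grey), with counts above the bars. All 3 sets have their highest share above 20 kb, at 3 of 3, 18 of 18 and 71.7%.

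A wider list of 58 other genes of the same pathways was counted by the same rule. Of these, 44 had a conservative peak, which is 75.9%, against 51.2% of all protein-coding genes. A peak called in both replicates was found at 31 of the 58, against 34.2% of protein-coding genes, and one within 500 bp of an own start site at 22, against 20.1%. With peaks assigned by nearest start site, 35 of the 58 had one (60.3%), against 21.6%. Long genes are frequent in this list. All 18 genes over 20 kb had a peak, as did 13 of 19 of 5 to 20 kb (68.4%) and 13 of 21 under 5 kb (61.9%), against 71.7%, 63.6% and 46.3% of protein-coding genes of those lengths. The list was drawn up with earlier results of these data known, and no enrichment was tested.

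Among BMP ligands and their extracellular modulators, 5 of 8 had a peak, beside 51.2% of protein-coding genes. The highest of any of the 58 genes was at gbb, the gene of the BMP ligand Glass bottom boat, with a signal of 426 in replicate 1, 502 in replicate 2 and 920 in the pooled list. It lay 1154 bp upstream of gbb and nearer to the start site of the antisense RNA gene asRNA:CR45928. A peak past the end of cv, which encodes the BMP-binding protein Crossveinless, had 274 in replicate 1, 299 in replicate 2 and 559 in the pooled list. The cv peak lay 613 bp upstream of the noncoding RNA gene lncRNA:CR42794. An intron of cv-2, the gene of the BMP-binding protein Crossveinless 2, held one with 158 in replicate 1, 163 in replicate 2 and 320 in the pooled list. Weaker peaks lay at the start sites of cv-2, with a pooled signal of 87.3, and of dally, which encodes a heparan sulphate proteoglycan that binds Dpp, with 61.8. The genes scw, tsg and srw had none.

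At the BMP receptors, 3 of 4 genes had a peak, and each of the 3 genes had one called in both replicates. The shares over protein-coding genes were 51.2% and 34.2%. The type II receptor gene wit had the highest, in an intron 1109 bp downstream of its start site, with 136 in replicate 1, 187 in replicate 2 and 326 in the pooled list. At sax, a type I receptor gene, a peak of 215 lay 332 bp downstream of the start site, in the 5′ untranslated region. The gene of the type I receptor Thickveins, tkv, had peaks up to 136, and put had none.

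All 3 genes of the intracellular group had a peak, beside 51.2% of protein-coding genes. The transcription factor gene shn, whose product Schnurri acts with Mad and Medea to repress brk, held 10, of which 4 were called in both replicates. The highest had 132 in replicate 1, 245 in replicate 2 and 384 in the pooled list. A further one of 81.1 lay 61 bp upstream of a shn start site. The inhibitory Smad gene Dad had a highest peak of 167, and Smurf, the gene of a ubiquitin ligase that acts on Mad, one of 58.9. The Smurf peak lay 64 bp upstream of the gene tRNA:Phe-GAA-1-4 and was in neither replicate's thresholded list.

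Upstream of Dorsal, 10 of 13 genes of the maternal Toll pathway had a peak, and 6 of them had one at a start site, where the shares over protein-coding genes were 51.2% and 20.1%. The 2 highest start-site peaks of this group were at pll, the gene of the kinase Pelle, with 278, and at cact, the gene of the Dorsal inhibitor Cactus, with 275. Each was called in both replicates. The adaptor gene Myd88 had 102 at its start site, the serpin gene Spn27A 77.7, the receptor gene Tl 75.7 and the adaptor gene tub 66.3. A peak 4989 bp downstream of the start site of wbl, a maternal gene of the endoplasmic reticulum, had 91 in replicate 1, 183 in replicate 2 and 288 in the pooled list. The wbl peak was nearer to the start site of CG33453, 1522 bp upstream of it. The tub peak was in neither replicate's thresholded list, and none of the 3 peaks of Tl or the 3 of Spn27A was called in both replicates. The protease genes gd and snk and the ligand gene spz had no peak, and the protease genes ea and ndl had one each, with 64.8 and 88.7. The ea peak lay 4480 bp downstream of the ea start site and 57 bp upstream of the neighbour Cyfip. The ndl peak lay 357 bp upstream of jv, in an intron of MCU.

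In the mesoderm and gastrulation group, 7 of 9 genes had a peak and 6 had one at a start site, beside the same 51.2% and 20.1% of protein-coding genes. The highest was at tin, the homeobox gene of the dorsal mesoderm and heart, 212 bp upstream of its start site, with 269 in replicate 1, 304 in replicate 2 and 589 in the pooled list. The muscle regulator gene Mef2 had one with 217 in replicate 1, 250 in replicate 2 and 464 in the pooled list, although that summit lay 160 bp upstream of the neighbour Pal1. At the Mef2 start site itself a weaker peak had 72.9. Start-site peaks had 204 at stumps, the gene of an adaptor of fibroblast growth factor signalling, 79.3 at T48, which acts in the folding of the mesoderm, and 66 at esg, a gene related to sna. Neither of the 2 peaks of esg was called in both replicates. The receptor gene htl had one called in replicate 2, with 29.8 in replicate 1 and 66.3 in replicate 2. No peak was found at cta, the gene of a G protein subunit, or at wor, the other relative of sna in the list.

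The neurogenic ectoderm and midline group had a peak at 7 of 8 genes, 4 of them at a start site. The shares over protein-coding genes were again 51.2% and 20.1%. These start-site peaks had 98.9 at pyr, 70.5 at rho, the gene of a protease that releases epidermal growth factor ligands, 64.7 at the midline regulator sim and 64.1 at the neural homeobox gene vnd. The last 3 were under the list median of 94.5. The rho peak, in an intron of Ptp61F, was called in replicate 1 alone, and the vnd peak was in neither replicate's thresholded list. The group's highest peak, 278, lay in an intron of ths, which like pyr encodes a fibroblast growth factor ligand. The homeobox gene ind had none.

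Among amnioserosa and dorsal ectoderm genes, 7 of 9 had a peak, beside 51.2% of protein-coding genes. The GATA cofactor gene ush had the most peaks of the 58 genes, 14, with 8 called in both replicates over a gene of 64.3 kb. Its highest had 112 in replicate 1, 179 in replicate 2 and 291 in the pooled list, and 85 was reached at a start site. A single peak with 162 in replicate 1, 180 in replicate 2 and 332 in the pooled list lay between the T-box genes Doc2 and Doc3 and was counted for both. Its nearest start site was that of CG5194. At Ance, the gene of a peptidase of the dorsal ectoderm, a peak with 113 in replicate 1, 248 in replicate 2 and 365 in the pooled list lay 87 bp upstream of the neighbour Smg5. The LIM-homeobox gene tup had 86.7 at a start site. The genes zen2 and pnr, which encodes a GATA factor, had none, so zen and its neighbouring paralogue zen2 both lacked a peak.

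Of 4 later targets of Dpp, 2 had a peak, beside 51.2% of protein-coding genes. The T-box gene bi had 3 peaks, all called in both replicates and at most 154, and the wing gene vg had one of 54. The vg peak lay 4032 bp upstream of vg and 61 bp downstream of the start site of the neighbour Nmda1. It was in neither replicate's thresholded list. The zinc-finger genes salm and salr had none.

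G+C content was lower at most of the 14 summits than beside them. Within 50 bp of the summit the mean G+C content was 33% (SD 8.99, n = 14 summits), and its difference from the flanks centred 300 bp away was -11.8 percentage points (SD 12.9). The summit was below its flanks at 12 of 14. Over all 5802 summits the mean was 35.8% (SD 10.9) and the difference -7.71 points (SD 14.4), with 70.9% below their flanks. The exceptions were the sog start-site peak, with 45.5% at the summit and 26.7% in the flanks, and the weaker twi peak, 8.42 points above its flanks. No test was made of this difference.

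**Figure D5:**
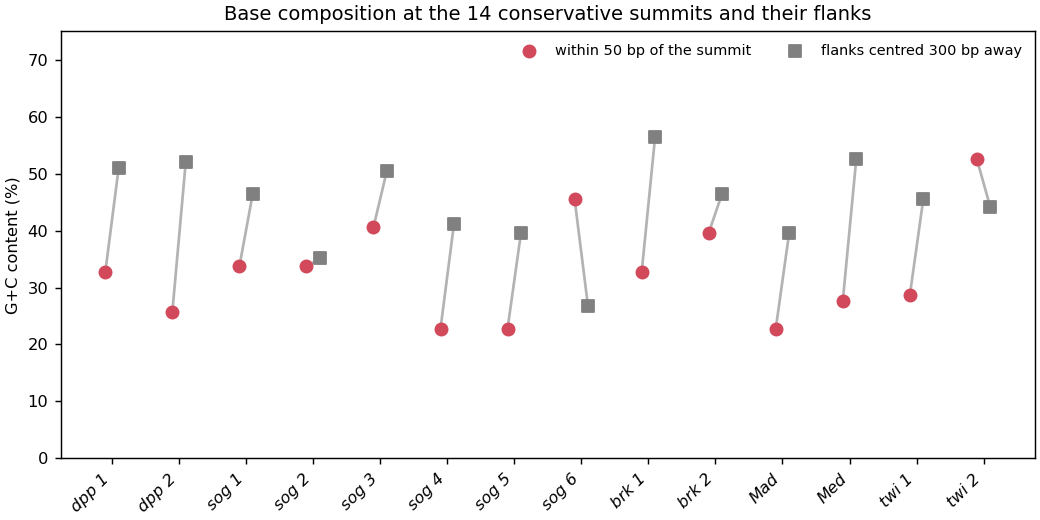
G+C content in percent within 50 bp of each of the 14 summits (red circles) and in flanks of equal length centred 300 bp away (grey squares). In 12 of 14 the circle lies under the square; sog 6, at the start site, and twi 2 are the exceptions.

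The letters of known binding sites were also searched within 50 bp of each summit, on both strands, and none of 10 words was found at any of the 14. The words and their shares over all 5802 summits were CAGGTAG of Zelda (0.345%), GAGAGAG of GAGA factor (1.22%), TATCGATA of the DNA replication-related element (1.15%) and AGGNGGC from the CTCF site (2.83%). For the pathway's own factors they were GCCGNCGC of Mad (0.603%), TGGCGCC of Brinker (1.52%), GGGAAANCC of Dorsal (0.276%), CACATG of Twist (3.69%) and CAGGTG of Snail (2.43%). The words of Zelda and Snail share their start CAGGT. The word TATTTTAA, which was taken from these data as the leading word of the whole list, was at 0 of the 14 and at 5.1% of all summits. Each word stood at fewer than 1 in 14 of all summits, so finding none says only that these letters are not in these windows.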

How the data were processed

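CG17328-eGFP was mapped by ChIP-seq in 1 group of 2 biological replicates. The authors deposited peak lists on assembly dm6, with a control alignment among the inputs, per the deposited listings. The aligner and peak caller, not given in the sources used here, could not be checked. The deposited signal (column 7) is the authors' peak signal, and how it was computed is not given. Column 10 of the deposited lists gives the summit offset, and column 12 of the deposited ranked lists gives the −log10 IDR, converted here to IDR. The authors' score is at least 830 in the conservative list. Read depth is unknown, because the lists hold no read counts, and no interval was computed. The columns with a signal per compared set carry no sample names and were not used.

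Gene models came from Ensembl release 115 and the sequence from the RefSeq copy of the same assembly, and 0 peaks ended past a chromosome end. Summits were counted with Python 3.11.15, pandas 2.3.3 and numpy 2.4.6, by a rule tested on simulated regions. With 1 group, no test was made. The 10 genes, the 58 pathway genes (Neu3 under its current symbol Meltrin) and the 10 words were chosen with earlier results of these data known. Named beside the 10 genes are those with the nearest start site to a peak, the 12 pathway genes with the highest peaks and each with a start-site peak. Other pathway genes were named after their values were seen, to complete a list.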

Additional observations from a re-analysis of the deposited data

Results flagged for a closer look

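At 3 of the 10 genes, an entry past the threshold stood in a list that the counts above do not use. In an intron of twi, 17877 bp from the first start site, a peak from 23003093 to 23003408 had a signal of 90.2 in the other series-level list, higher than both conservative peaks of twi. It was called in replicate 1, with a signal of 67.3 at an IDR of 0.000187, and was absent from the thresholded list of replicate 2. Its IDR was 0.0449 in the ranked list behind the conservative one and 0.00041 in the second ranked list. Upstream of brk, a peak from 7307220 to 7307535 had a signal of 5.66 in the other series-level list, at an IDR of 0.00177. The entry of replicate 2 there had a signal of 3.83 at an IDR of 0.00138. Its summit was 561 bp upstream of the brk start site, and it overlaps the conservative peak of 116. Upstream of Med, an entry from 31609634 to 31609949 had a signal of 68.4 at an IDR of 0.00517 and is in neither thresholded series-level list. Its summit lay 1254 bp upstream of Med and 23 bp inside CycG, the gene of Cyclin G.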

How the results depend on the processing

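No paired analysis was possible because both replicates form 1 group and there is no second one. The count of 6 genes with a peak became 3 in the gene body alone (dpp, sog and Mad) and was 4 to 8 under the other alternatives, 5 without either replicate. Without replicate 1 twi had none, and without replicate 2 brk had none. The 14 peaks became 7 in the gene body, 25 with 10 kb on either side and 9 when only peaks nearest to the gene's own start site were kept, an alternative chosen after seeing the data, and ranged from 9 to 13 without one replicate. The single gene with a start-site peak became 0 in the 2903 strongest conservative peaks, 3 with a window of 1000 bp, and 0 to 1 without one replicate. Genes with a peak of both replicates became 7 with 10 kb on either side, against 4 with 5 kb. The other pathway genes with a peak fell to 26 in the gene body and were 31 to 48 otherwise. These settings differ from the counts above by construction, through shorter, longer or fewer windows, or fewer peaks. Depth is unknown, so a gene without a peak may have had one under the detection limit.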

Other observations

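Between 5 and 10 kb from the 10 genes there were 11 further peaks, and they reached 2 genes that had none within 5 kb. At zen, a peak from 6759484 to 6759799 had a pooled signal of 152, was called in both replicates and lay 176 bp upstream of bcd. Another there, from 6762945 to 6763260, had 164 and lay 301 bp upstream of Ama. At dl, a peak from 17430087 to 17430222 had 181 and was called in both replicates. It lay within the span of the neighbouring gene Dif, which encodes another protein of the Dorsal family. At brk, a peak from 7319081 to 7319396 had 148, above both peaks nearer the gene, and was called in both replicates. None lay within 10 kb of tld or sna.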
